A study of Mus musculus with 6 samples.

Results

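The tumour necrosis factor (TNF) superfamily of ligands and receptors was examined in p65 chromatin immunoprecipitation followed by sequencing (ChIP–seq) of mouse epidermal cells. Members were the protein-coding genes of the mm10 RefSeq annotation whose symbol starts with Tnfsf or Tnfrsf, together with Tnf, Lta, Ltb, Ltbr, Cd40, Cd40lg, Cd27, Cd70, Fas, Fasl, Ngfr, Eda, Edar and Eda2r. This rule gave 46 of 20923 protein-coding genes, of which 19 were ligands and 27 receptors. A peak was given to a member when the member's transcription start site was the nearest of all curated RefSeq start sites to the middle of the peak, and a gene with at least 1 such peak was called bound.

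The study asked how blockade of IL-17A and IL-17F during aging affects where p65 sits in epidermal chromatin. Epidermal cells came from C57bl/6J mice in 3 conditions. The adult mice had no treatment (17 to 25 weeks of age per the methods), and the aged mice received a control IgG (aged/IgG) or antibodies against IL-17A and IL-17F (aged/anti-IL-17A/F, called blockade below) for 12 weeks from 73 weeks of age. Chromatin of 4 mice per condition was sequenced and the reads were merged before peak calling, so that each condition is 1 list of peaks (8525 in adult, 4169 in aged/IgG and 6014 under blockade). With 1 pooled list each there was no spread between mice and conditions could not be tested against each other. Intervals are 95% Wilson intervals and cover counting error only.

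The peak names inside the list labelled adult start with the word Treated, as do those of the blockade list. The label was kept, since the authors' own annotation of adult peaks gives the positions of the list labelled adult. With these lists exchanged, 18 members would count as bound in adult, 10 in aged/IgG and 16 under blockade. The lists cover all epidermal cells together, so that fewer cells of a type and less p65 per cell cannot be told apart. Peaks give no expression, and the label of the cells could therefore not be checked by it. Of 10 keratinocyte genes 8, 4 and 6 were bound in adult, aged/IgG and blockade, and of 9 T cell genes 1, 1 and 2. Of 10 genes of Langerhans and other myeloid cells 2 were bound in each, and of 5 melanocyte genes 0. Of all protein-coding genes, 23.1%, 12.9% and 17.5% were bound. With each list cut to the length of the aged/IgG list by q value, the keratinocyte counts were 5, 4 and 6. The counts of the other cell types were then unchanged. The part of these cell types in the results below was not tested.

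TNF superfamily ligands are trimeric membrane or soluble proteins that bind receptors on neighbouring cells. Apart from the decoy receptors, most receptors recruit TRAF adaptors or, for some with a death domain, also FADD or TRADD. They lead to NF-κB activation or cell death. NF-κB dimers that contain p65 bind the κB motif and in turn activate Tnf and several other genes of the pathway, among them the feedback inhibitors Tnfaip3 and Tnip1. In the epidermis, TNF and IL-17 act on keratinocytes together, and Eda with its receptor Edar is known for its role in hair follicle formation.

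The κB motif was spelled as GGG, a purine, any base, A or T, a pair of pyrimidines and CC, and was searched on both strands within 100 bp of each summit. It lay under 6 of the 23 genomic regions of the family. Those 6 are shown because they are the member sites at which the sequence under p65 holds the motif. They are given 5′ to 3′ on the strand named, in mm10, with the match in capitals.
Tnfsf13, chr11:69686106-69686145, + strand, intron of the antisense gene Tnfsf13os: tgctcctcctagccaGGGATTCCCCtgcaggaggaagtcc
Tnf, chr17:35199153-35199192, - strand, beyond the 3′ end of the gene: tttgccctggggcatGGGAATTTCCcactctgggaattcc
Tnfsf15, chr4:63745328-63745367, - strand, upstream of the start site: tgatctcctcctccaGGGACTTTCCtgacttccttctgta
Tnfsf10, chr3:27323677-27323716, - strand, intron of Tnfsf10: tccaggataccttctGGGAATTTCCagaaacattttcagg
Tnfsf18, chr1:161576012-161576051, + strand, intergenic: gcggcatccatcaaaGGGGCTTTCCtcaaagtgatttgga
Tnfrsf14, chr4:154933653-154933692, + strand, intergenic: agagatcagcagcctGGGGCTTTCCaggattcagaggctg

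The motif sat under 5 of 6 ligand regions and under 1 of 17 receptor regions, a difference that was not tested. Of these regions, 4 of the ligands and 6 of the receptors had a peak in all 3 lists. A looser consensus was GG, a purine, any pair of bases, a pair of pyrimidines and CC. It also matched within 100 bp of the strongest summit at Tnfsf8, Fas, Tnfrsf1b, Tnfrsf10b and the Tnfrsf11a promoter. In the blockade peak of Tnfrsf1a a match to the stricter motif lay 209 bp from the summit, outside the window. The sites of Tnf and Tnfsf10 held the same 10 bases, GGGAATTTCC, which were found near 1.57% of all summits in adult, 2.25% in aged/IgG and 1.96% under blockade. Those of Tnfsf18 and Tnfrsf14 shared GGGGCTTTCC, found near 1.42%, 2.16% and 1.995% of summits. At Tnf, 12 bp separated the motif on the - strand from the adult summit, 8 bp from the aged/IgG summit and 26 bp from the blockade summit, and a second match on the other strand overlapped it. The Tnfsf13 match also reads as the motif on the opposite strand, and it lay 52 bp from the adult summit, 61 bp from the blockade summit and 139 bp from the aged/IgG summit.

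Counted by peaks, 5 of 19 member peaks in adult had the motif (26.3%, 11.8 to 48.8%), 3 of 10 in aged/IgG (interval 10.8 to 60.3%) and 5 of 18 under blockade (27.8%, 12.5 to 50.9%). Among all peaks the shares were 28.5%, 37.8% and 34.9%, inside each of these intervals. In equally wide windows placed 2000 bp away from the summits on either side they were 2.18%, 1.95% and 2.26%. Among the receptor regions without the motif were those of Tnfrsf4 and Ngfr, whose bases around the adult summit are given on the + strand for comparison.
Tnfrsf4, chr4:156013813-156013853: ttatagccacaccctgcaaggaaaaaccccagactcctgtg
Ngfr, chr11:95560918-95560958: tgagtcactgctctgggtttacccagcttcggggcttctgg

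Of the 46 members, 36 had at least 1 promoter in the RefSeq sequence table (GRCm38, 250 bases before to 50 after the start), and 3 of these held the motif (8.33%, against 5.65% of 16783 genes). They were Ltb, Tnfrsf8 and Tnfrsf9, and none of these had a peak given to it in any condition. The Ltb promoter, whose match 87 bases before the start is on the strand opposite to the gene, carried the decamer of the Tnfsf15 site, GGGACTTTCC in the reverse complement.
Ltb, chr17:35194410-35194439: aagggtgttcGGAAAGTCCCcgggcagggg

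p65 occupied 16 of the 46 members in adult, 10 in aged/IgG and 18 under blockade. The adult share was 34.8% (22.7 to 49.2%), beside 23.1% of all protein-coding genes. In aged/IgG it was 21.7% (12.3 to 35.6%), beside 12.9%, and under blockade 39.1% (26.4 to 53.5%), beside 17.5%. The family was thus lowest in aged/IgG, as all genes were. With each list reduced to its 4169 strongest peaks by q value, the length of the aged/IgG list, 11, 10 and 13 members were bound, beside 13.2%, 12.9% and 13.1% of all genes. The order between adult and blockade depended on the counting. For peaks with a −log10 q of at least 10, the members bound in adult, aged/IgG and blockade were 15, 9 and 13, beside 16.8%, 9.68% and 13% of all genes. Within 10 kb of the start they were 14, 6 and 11, beside 17.5%, 8.78% and 12.2%. With predicted transcripts included they were 16, 9 and 16, beside 21%, 11.3% and 15.4%. The intervals of the 3 conditions overlap. In all, 19 members were bound in at least 1 condition (25.2% of all genes were) and 10 in all 3 (11.4% of all genes).

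**Figure D1:**
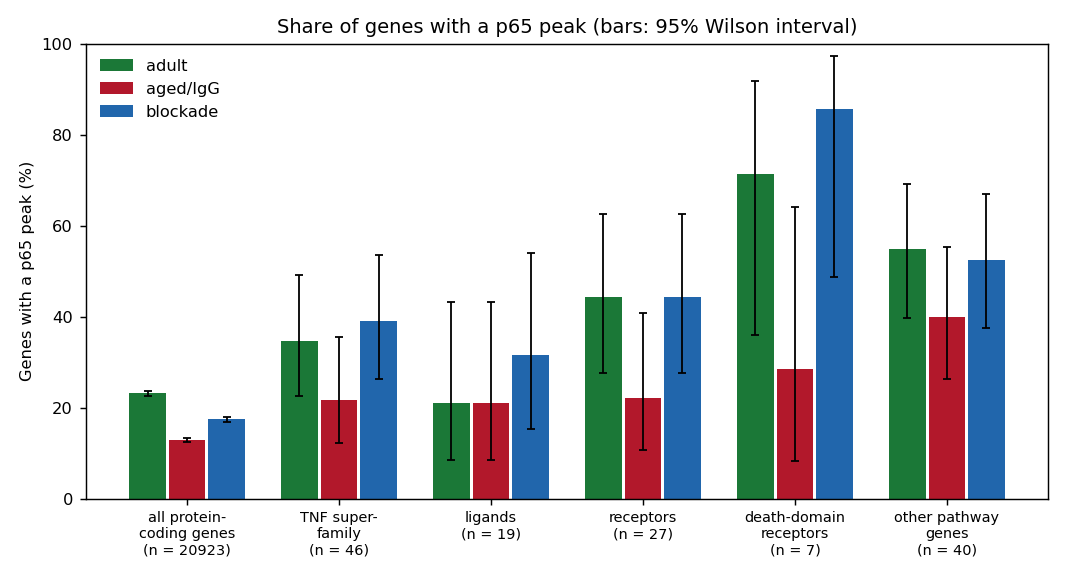
Share of genes with a p65 peak in adult, aged/IgG and blockade (y axis, percent), for all 20923 protein-coding genes, the 46 TNF superfamily genes, their ligands, receptors and death-domain receptors, and 40 other genes of the pathway. Bars are shares of 1 pooled list each and error bars 95% Wilson intervals for counting error. Ligands had the same share in adult and aged/IgG (21.1%), while receptors had 44.4% and 22.2%; with equal peak numbers, which the bars do not show, receptors had 25.9% and 22.2%.

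Ligands and receptors were counted apart, and the difference between them was not tested. The same 4 of 19 ligands (Tnf, Tnfsf10, Tnfsf13 and Tnfsf15) were bound in adult and in aged/IgG, and 6 under blockade, where Tnfsf8 and Tnfsf18 were added. Of 27 receptors, 12 were bound in adult, 6 in aged/IgG and 12 under blockade, where all genes stood at 23.1%, 12.9% and 17.5%. With equal peak numbers the receptors became 7, 6 and 9 and the ligands 4, 4 and 4, beside 13.2%, 12.9% and 13.1% of all genes. Among the 7 receptors with a death domain the counts were 5 (71.4%, 35.9 to 91.8%), 2 (28.6%, 8.22 to 64.1%) and 6 (85.7%, 48.7 to 97.4%), intervals that overlap, and with equal peak numbers 3, 2 and 3. Among the 4 decoy receptors 1, 0 and 0 were bound, and among the 16 other receptors 6, 4 and 6.

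The longer lists had more genes called in total. When each list was cut to its 4169 strongest peaks by q value, 11 members were bound in adult, 10 in aged/IgG and 13 under blockade, beside 13.2%, 12.9% and 13.1% of all genes. The share of members at this length was 23.9% (13.9 to 37.9%) in adult, 21.7% in aged/IgG and 28.3% (17.3 to 42.5%) under blockade. The stretch of genome nearer to a gene's start than to any other start had a median of 76.2 kb for the 19 bound members and 36.5 kb for the 27 without a peak, and over all genes the medians were 54.8 kb and 38.6 kb.

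Member peaks had a median fold enrichment of 3.95 in adult, 5.10 in aged/IgG and 3.96 under blockade, beside 3.60, 3.80 and 3.69 for all peaks. The 5 regions with the highest values were those of Tnfsf13, Tnfrsf4, Tnf, Tnfrsf11a and Tnfsf15. Distances are those of the strongest peak of a region unless a condition is named. At Tnfsf13, which encodes APRIL, a survival factor of B cells and plasma cells, fold enrichment over the local background was 9.08 in adult, 5.99 in aged/IgG and 6.29 under blockade. The peak sat 407 bp upstream of the start site in adult. It lay in introns of Tnfsf13os and of the read-through gene Tnfsfm13, another member, which shares its start with Tnfsf12. At Tnf, the founding cytokine of the family, the values were 7.52, 6.60 and 7.11, at a peak 2854 bp downstream of the start in adult, just past the 3′ end of the gene. The Tnf peak was the strongest of the family in aged/IgG and under blockade.

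At Tnfsf15, which encodes TL1A, the adult fold enrichment was 6.20, followed by 4.56 in aged/IgG and 6.46 under blockade, with the adult peak 249 bp upstream of the start. Tnfsf10, encoding the death ligand TRAIL, had an intronic peak 6636 bp into the gene with 5.45, 3.84 and 5.02. All 4 ligands were thus lowest in aged/IgG, and only Tnfsf15 was higher under blockade than in adult. In the blockade list alone, Tnfsf8, encoding CD30 ligand, had a peak of 3.20 at 44894 bp upstream, and Tnfsf18, encoding GITR ligand, a peak of 2.93 at 81353 bp downstream. Both were in the lower 4 deciles of fold enrichment of their list. The nearest adult peak was 160351 bp from the Tnfsf8 peak and 300035 bp from the Tnfsf18 peak.

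**Figure D2:**
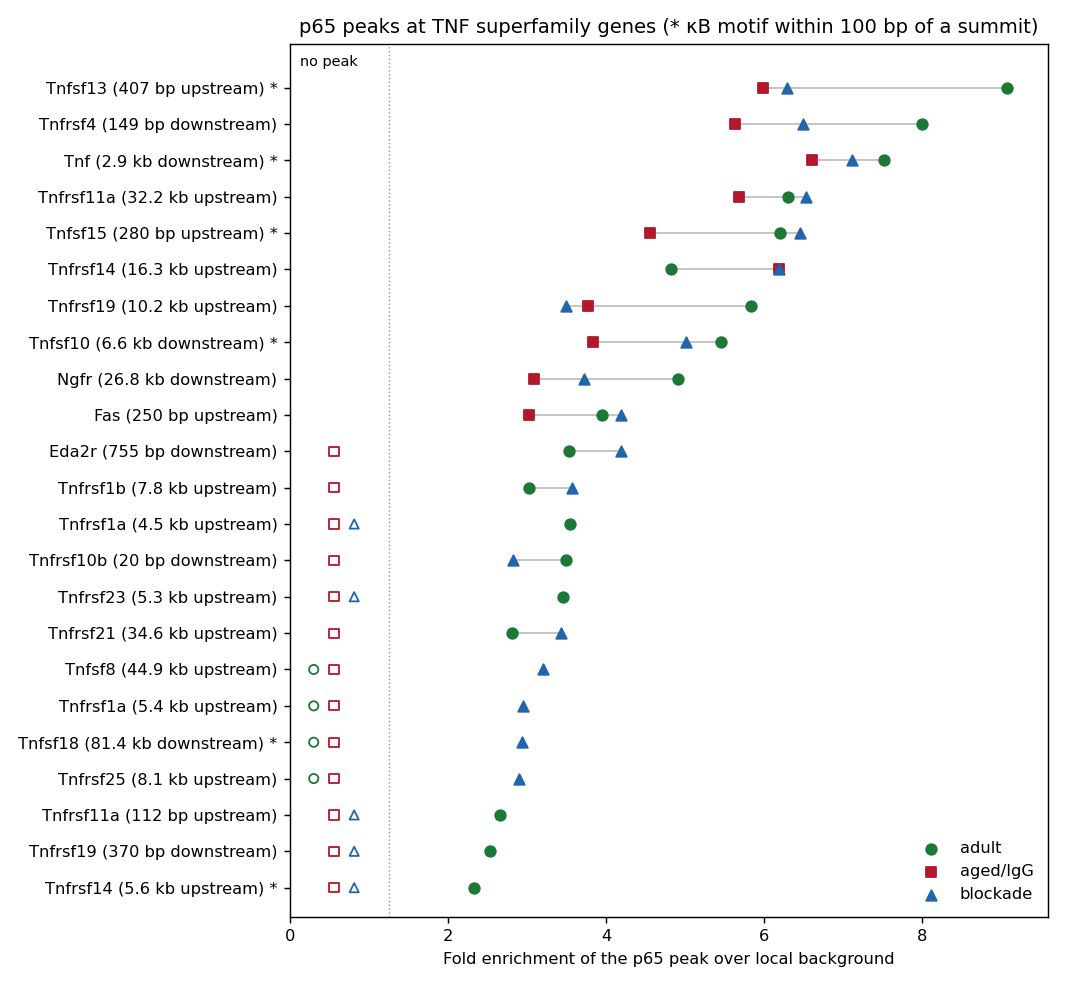
Fold enrichment over local background (x axis) of the 23 p65 regions of the TNF superfamily, 1 row per region with the distance of its strongest peak from the start site, for adult (circles), aged/IgG (squares) and blockade (triangles). Open symbols at the left mark lists with no peak there, and asterisks regions with a κB motif. The 10 regions found in all 3 lists fill the upper rows and the 13 others reach 4.19 at most.

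Of the receptors with a death domain, Fas and Ngfr had a peak in all 3 conditions. At Fas, the receptor of Fas ligand, peaks reached 3.95 in adult, 3.02 in aged/IgG and 4.19 under blockade, with the adult peak 204 bp upstream of the start. At Ngfr, the low-affinity neurotrophin receptor, the values were 4.91, 3.09 and 3.73 at a peak 26776 bp downstream of the start, beyond the gene. Tnfrsf10b, the TRAIL receptor of the mouse, had a peak at its start site (20 bp downstream) of 3.499 in adult and 2.82 under blockade, and none in aged/IgG, where the nearest peak was 279379 bp away. Tnfrsf21, encoding death receptor 6, had one of 2.82 in adult and 3.44 under blockade, 34573 bp upstream, with the nearest aged/IgG peak at 48018 bp.

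Tnfrsf1a, the main signalling receptor of TNF, was bound in adult and under blockade at different places. The adult peak (3.55) was 4547 bp upstream of the start and the blockade peak (2.95) 5402 bp upstream, on an exon of the neighbouring gene Scnn1a outside its coding sequence, with 394 bp between them. The nearest aged/IgG peak was 31982 bp from the adult one. Tnfrsf25, the receptor of TL1A, had a peak under blockade alone, of 2.89 and 8126 bp upstream, which fell on a coding exon of Plekhg5. Edar, which acts in hair follicle formation, was the only death-domain receptor without a peak in any list.

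**Figure D3:**
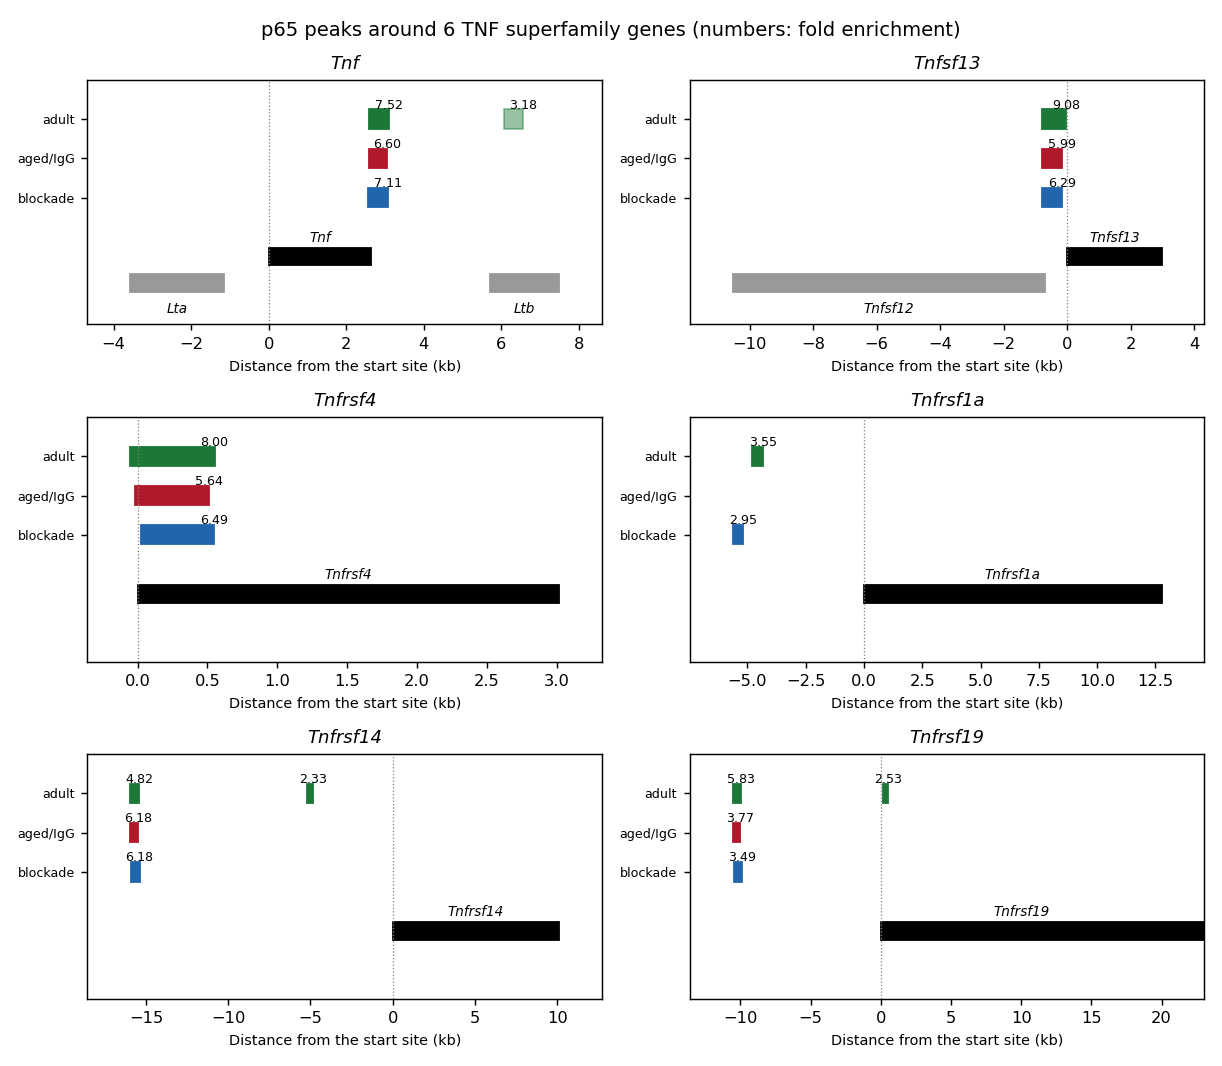
p65 peaks (coloured bars, 1 row per condition, with fold enrichment) around Tnf, Tnfsf13, Tnfrsf4, Tnfrsf1a, Tnfrsf14 and Tnfrsf19, against the distance from the start site in kb (x axis, drawn so that transcription runs to the right, with 0 at the outer end of the annotated gene, which for Tnfrsf14 lies ahead of the curated start that the text measures from). Black boxes are the genes (Tnfrsf19 runs on past the frame), grey boxes the neighbouring members Lta, Ltb and Tnfsf12, and the pale bar is a peak nearest to another gene. The Tnf peak of 7.52, 6.60 and 7.11 lies just past the 3′ end in all 3 lists, while Tnfrsf1a has peaks at different places in adult and blockade.

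Among the other receptors, Tnfrsf4 had the strongest peak. At this gene for the T cell co-stimulatory receptor OX40, peaks reached 8.001 in adult, 5.64 in aged/IgG and 6.49 under blockade, at 149 bp downstream of the start in adult. Tnfrsf11a, encoding RANK, had 6.31, 5.69 and 6.53 at a peak 32179 bp upstream inside an intron of Relch. Its promoter carried a second, weak peak of 2.66 in adult alone. Tnfrsf14, encoding HVEM, was the only member with a higher value in aged/IgG (6.18) and blockade (6.18) than in adult (4.82), 16275 bp upstream. This region was about as far, 16625 bp, from the start of Hes5, a target of Notch signalling.

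Tnfrsf19, encoding TROY, had 5.83 in adult, 3.77 in aged/IgG and 3.49 under blockade at a peak 10245 bp upstream. It was the only shared region of the family for which the value under blockade was the lowest of the 3. A weak peak of 2.53 near its start and one of 2.33 upstream of Tnfrsf14 were found in adult alone, and both were in the lowest decile of the adult list. Eda2r, the receptor of the EDA-A2 form of ectodysplasin, had an intronic peak 755 bp from the start of 3.54 in adult and 4.19 under blockade. Tnfrsf1b, the second TNF receptor, had one of 3.02 and 3.57, 7803 bp upstream. Neither gene had a peak in aged/IgG, where the nearest was 1930883 bp from the Eda2r peak and 1853760 bp from that of Tnfrsf1b.

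Tnfrsf23, a decoy receptor of TRAIL, was the only decoy receptor with a peak. It was present in adult alone, with 3.45, and lay 5342 bp upstream in an intron of Osbpl5. No peak was given to the other decoy receptors Tnfrsf11b, Tnfrsf22 and Tnfrsf26. The rest of the 27 members without a peak were Edar, the ligands Cd40lg, Cd70, Eda, Fasl, Lta, Ltb, Tnfsf4, Tnfsf9, Tnfsf11, Tnfsf12, Tnfsf13b, Tnfsf14 and Tnfsfm13, and the receptors Cd27, Cd40, Ltbr, Tnfrsf8, Tnfrsf9, Tnfrsf12a, Tnfrsf13b, Tnfrsf13c, Tnfrsf17 and Tnfrsf18. A missing peak means that none passed the authors' q value of 0.01, not that p65 was absent.

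Some of these genes lay close to peaks that were nearest to another gene. A peak 4621 bp from the Tnfrsf18 start, encoding the receptor GITR, had 8.77 in adult, 7.25 in aged/IgG and 10.6 under blockade and was given to the noncoding gene Gm16008, which is closer. A weaker peak beside it, 5735 bp from the Tnfrsf18 start in adult and also given to Gm16008, had 4.77, 4.07 and 3.25, lowest under blockade. The first peak was stronger under blockade than any peak given to a member, and its summits in aged/IgG and under blockade, but not in adult, had the κB motif within 100 bp. A peak at the start of Tapbpl, 5181 bp from the start of Cd27, a co-stimulatory receptor of T cells, had 4.58, 4.12 and 4.04. Inside Ltb, a peak of 3.18 was found in adult alone and was nearest to a microRNA gene, and a peak of 2.82 lay 5809 bp from the start of Tnfrsf9, the gene of 4-1BB, in adult alone. The Tnf peak itself lay 4646 bp from the start of Ltb, in the cluster that holds Lta, Tnf and Ltb. With all peaks in the gene or within 10 kb of it counted, 22, 13 and 19 members would have a peak in adult, aged/IgG and blockade, beside 29.9%, 16.7% and 22.3% of all protein-coding genes.

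Set by ligand and receptor, Tnf had a peak in every condition and its receptors Tnfrsf1a and Tnfrsf1b in adult and blockade. Tnfsf10 likewise had one in every condition, Tnfrsf10b in adult and blockade and the decoy Tnfrsf23 in adult alone. For Tnfsf15 the receptor Tnfrsf25 was bound under blockade alone. Fas and Tnfrsf11a, by contrast, had peaks in all conditions while the ligands Fasl and Tnfsf11 had none. The same held for Tnfrsf4 without Tnfsf4 and for Tnfrsf14 without Tnfsf14. The reverse was found for Tnfsf13, bound in every condition, while its receptors Tnfrsf13b and Tnfrsf17 had no peak given to them. Tnfsf8 and Tnfsf18 were bound under blockade alone, and Tnfrsf8 and Tnfrsf18 in no list. With equal peak numbers, Tnfrsf1b was bound under blockade alone and Tnfrsf10b in adult alone. Tnfrsf1a, Tnfrsf23 and Tnfrsf25 were then bound in no list.

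The peaks spread widely around the starts. Of the 23 regions, 8 were within 1 kb of the start, 8 at 1 to 10 kb and 7 beyond, and 13 were intergenic. Within 1 kb, 8 members had a peak in adult, 4 in aged/IgG and 6 under blockade, beside 13.3%, 5.89% and 8.58% of all genes. The 4 members with such a peak in every list were Tnfsf13, Tnfrsf4, Tnfsf15 and Fas. Eda2r and Tnfrsf10b had one in adult and blockade, and Tnfrsf11a and Tnfrsf19 in adult alone.

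Between adult and aged/IgG, 6 members had a peak in adult alone of the pair, which was 13.0% (6.12 to 25.7%) beside 10.8% of all genes. They were Tnfrsf1a, Tnfrsf1b, Tnfrsf10b, Tnfrsf21, Tnfrsf23 and Eda2r, all of them receptors. No member was bound in aged/IgG and not in adult, a pattern that 0.607% of all genes had, and a count of 0 of 46 allows a share of up to 6.52% (3 counts of the total, beside a Wilson upper limit of 7.71%). With equal peak numbers, only Tnfrsf10b was bound in adult but not in aged/IgG, beside 2.65% of all genes.

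Between the aged groups, 8 members were bound under blockade but not in aged/IgG, 17.4% (9.09 to 30.7%) beside 5.81% of all genes. None went the other way, beside 1.3%. Of the 8, Tnfrsf1a, Tnfrsf1b, Tnfrsf10b, Tnfrsf21 and Eda2r were also bound in adult, a pattern that 4.32% of all genes had. Tnfrsf1a counts here through peaks at different places in adult and blockade. By region, the pattern of adult and blockade without aged/IgG held for 4 of 23 member regions (17.4%), beside 16.99% of all regions. Tnfrsf25, Tnfsf8 and Tnfsf18 were not bound in adult, beside 1.71% of all genes. Only Tnfrsf23 was bound in adult and not under blockade, beside 7.4%. With equal peak numbers the 8 became 3, namely Eda2r, Tnfrsf1b and Tnfrsf21 (6.52%, 2.24 to 17.5%), beside 2.69% of all genes, and both comparisons share the aged/IgG list.

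Where a region had a peak in adult and in aged/IgG, fold enrichment was lower in aged/IgG over the whole genome, with a median log2 ratio of -0.30 over 3858 regions. The 10 member regions had a median of -0.47, with 9 of 10 lower, beside 78.7% of all shared regions. Ngfr (ratio 0.629), Tnfrsf19 (0.647) and Tnfsf13 (0.660) were at least 1.5 times lower, 3 of 10 beside 22.3% of all shared regions. Tnf (0.878) and Tnfrsf11a (0.901) were nearer to 1 than the median region, and Tnfrsf14 (1.28) was above 1. The middle 50% of all shared regions ran from -0.55 to -0.05 on the log2 scale.

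From aged/IgG to blockade the median log2 ratio was 0.20 at the 10 member regions and 0.14 over 3586 regions. The values were higher at 8 of the 10 and lower at 2, while 33.5% of all shared regions were lower, with the largest ratios at Tnfsf15 (1.42), Fas (1.39) and Tnfsf10 (1.31). Tnfrsf19 (0.925) was lower, and Tnfrsf14 had nearly the same value in both lists. No member region was at least 1.5 times higher, beside 10.2% of all shared regions. Between adult and blockade, 7 of 14 shared member regions were higher and 7 lower, while 65.9% of 5102 shared regions were lower, with a median log2 ratio of -0.15.

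**Figure D4:**
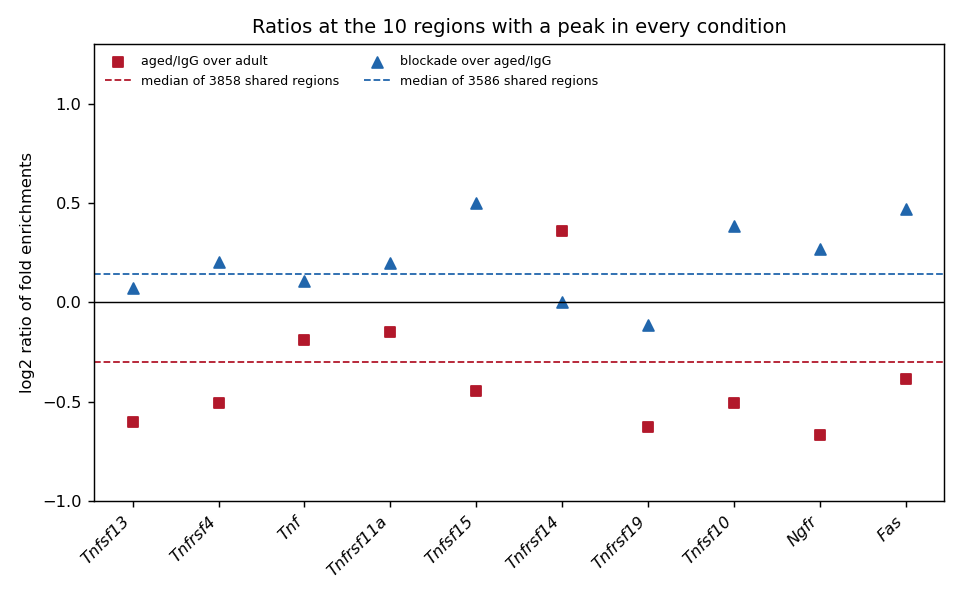
log2 ratio of fold enrichments (y axis) at the 10 member regions with a peak in every condition, for aged/IgG over adult (squares) and blockade over aged/IgG (triangles), each from 1 pooled list per condition without error. Dashed lines are the medians of all shared regions, -0.30 and 0.14. Tnfrsf14 is the only gene with a square above 0, and Tnfrsf19 the only one with a triangle below 0 by more than 0.1.

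Which adult peaks were also found in aged/IgG went with their strength. The 10 adult member peaks that overlapped an aged/IgG peak had fold enrichments of 3.95 to 9.08, and the 9 that did not had 2.33 to 3.55. Over all adult peaks, the median was 4.92 for those with an overlap and 3.13 for those without, and the ranges overlapped. Summed over the strength deciles of all adult peaks, 10.63 of the 19 member peaks would overlap, beside 10 that did. In the blockade list, 10 of 18 member peaks overlapped an aged/IgG peak, beside a decile sum of 11.97, and the strongest without one was that of Eda2r (4.19).

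**Figure D5:**
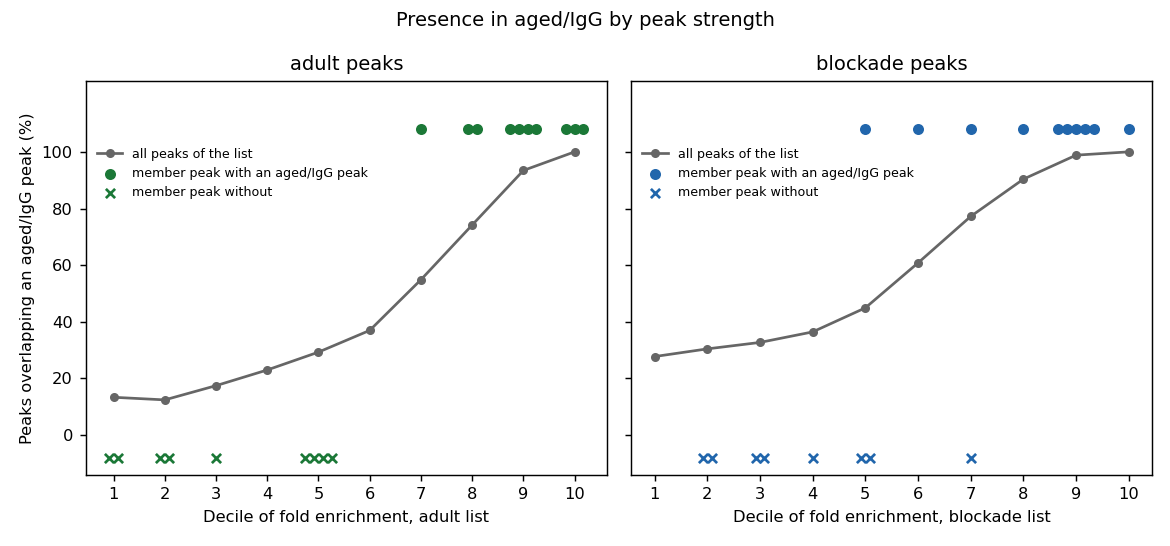
Share of peaks that overlap an aged/IgG peak (y axis, percent) by decile of fold enrichment (x axis) for all adult peaks (left) and all blockade peaks (right). Dots above the curve are member peaks with an aged/IgG peak and crosses below it those without, placed in their decile and not read on the y axis. In adult, the share is 12.4 to 37.0% in deciles 1 to 6 and 54.9 to 100% in deciles 7 to 10.

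Other genes of the pathway, a list of 40 adaptors, kinases, ubiquitin enzymes, caspases and shedding enzymes, were counted in the same way. Of these, 22 were bound in adult (39.8 to 69.3%), 16 in aged/IgG (26.3 to 55.4%) and 21 under blockade (37.5 to 67.1%), intervals that overlap those of the family. All protein-coding genes stood at 23.1%, 12.9% and 17.5%, so both were lowest in aged/IgG, and with equal peak numbers 14, 16 and 14 of the 40 were bound. In all 3 conditions 15 were bound, beside 11.4% of all genes. The values that follow are the highest over all peaks of a gene, which need not be the same site in each condition. Tnip1, an NF-κB feedback inhibitor, had 22.6 in adult, 16.96 in aged/IgG and 14.1 under blockade, and Tnfaip3, which encodes A20, had 13.8, 14.2 and 21.6. Cyld, a deubiquitinase, had 18.5, 10.1 and 14.4. Among the adaptors and inhibitors of cell death that TNF receptors recruit, Traf2 had 17.4, 8.46 and 13.4 and Birc3 13.2, 6.32 and 14.3.

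In this list, the genes bound in adult but not in aged/IgG included Adam17, which encodes the protease that releases TNF from the membrane, Casp8, Cradd, Tab3, Traf5 and Traf6. The strongest adult peaks of these genes ranged from 2.68 (Traf6) to 3.81 (Cradd), below the 3.95 of Fas. Of all genes, 10.8% were bound in adult but not in aged/IgG. With equal peak numbers, 14 of the 40 were bound in adult and 16 in aged/IgG. Rnf31, a subunit of the linear ubiquitin ligase, was the only gene of the list with a peak in aged/IgG (3.70) and not in adult. This pattern was found at 0.607% of all genes. No peak was given to 15 of the 40, among them Tradd, Ripk1, Ikbkg and Edaradd, beside 15642 of all 20923 protein-coding genes.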

How the data were processed

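Peak lists of p65 ChIP–seq were used for 3 conditions, and the 3 input samples were left out, not analysed here. For these lists the authors trimmed and aligned the reads (mm10), pooled 4 mice per condition, removed duplicates, reduced each pool to equal read numbers and ran MACS2 with a q threshold of 0.01; the submitters' processing notes name Trimmomatic 0.36, MACS2, R 4.0.5 and featureCounts. The deposited columns are positions, a score, fold enrichment (a ratio to local background), −log10 of the p-value and q-value, and the summit. The use of the inputs in peak calling is not given in the sources used here, so this background may be that of the input or of the ChIP itself. Pooling removes the variation between mice, a weak peak can miss the threshold in 1 list with little difference in signal, and the read depth behind a peak is unknown.

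Positions were matched to the RefSeq annotation of GRCm38. Each peak went to the nearest curated start site from its midpoint, and peaks were shared or merged to regions at an overlap of at least 1 bp. Values are the strongest peak of a condition in a region or, for other pathway genes, over all peaks of the gene. Shares have 95% Wilson intervals, and no p-values were computed. Ratios within a region were compared with the median of all shared regions. Assignment, overlap and motif steps were tested on simulated data. Python 3.11.15, numpy 2.4.6, pandas 2.3.3, scipy 1.17.1, pysam 0.24.0 and matplotlib 3.10.9 were used. Alternatives were stricter q values, equal peak numbers, other distances, positions, transcripts and gene windows, a stricter overlap, other motif settings and an exchange of the lists.

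The members, role groups and gene lists were chosen with earlier results of these data known. Every member is named. Values are given for the 10 strongest regions, members bound in some conditions, those with a peak within 1 kb and those with at least 4 regions (none), and sequences for regions with the motif. Values of neighbouring peaks and of pathway genes, and the sequences of Tnfrsf4, Ngfr and Ltb, were chosen after their values were seen. The result of 1 gene of the pathway list is not reported here.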

Additional observations from a re-analysis of the deposited data

How the results depend on the processing

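Of the 129 values recomputed under an alternative, 13 moved by more than the tolerance. This was 1.5 times for counts, the Wilson interval for shares and 0.1 for log2 ratios. No median ratio changed its sign. Under the exchange of the lists the medians only trade places with the sign reversed, so that their signs there say nothing about stability. The Wilson intervals are wide, and within them the motif share of member peaks ran from 21.1% to 42.1% in adult, from 30% to 40% in aged/IgG and from 16.7% (within 50 bp of the summit) to 50% (looser consensus) under blockade. With only peaks within 10 kb of the start, 6 members (6 peaks) remained in aged/IgG and 11 (11 peaks) under blockade (anti-IL-17A/F), and 5 were bound under blockade and not in aged/IgG. That last count was 4 with a −log10 q of at least 10 and 3 with equal peak numbers. Within 10 kb, with a −log10 q of at least 10 and with gene windows, more members were bound in adult than under blockade. Equal peak numbers left 11 member peaks in adult, of which 90.9% overlapped an aged/IgG peak and 90.9% a blockade peak, beside 75.5% and 78.5% of all adult peaks (without that limit 52.6% and 73.7% of member peaks, beside 45.5% and 60.4%), and 1 member bound in adult but not in aged/IgG; by construction, the weak peaks of the longer lists were left out. With the adult and blockade lists exchanged, an alternative chosen after seeing the data, the median log2 ratios were -0.20 and 0.47. No paired analysis was possible because each condition is 1 pooled list, and for the same reason no mouse could be left out. Counts of 46 genes gave wide intervals, which overlapped between the conditions.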
